A study of Mus musculus with 12 samples.

Results

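Tyr, Tyrp1, Dct, Pmel and Mlana are 5 genes of the pigment programme of melanocytes, and their chromatin was followed here in mouse melanoma cells with intact or mutant KMT2D, a histone methyltransferase that places H3K4me1 at enhancers. All peaks of 10 deposited peak lists that lay within 20 kb of these 5 gene spans were taken, which gave 43 peaks of 173601 in all. The spans came from the rule and not from the readout, on the mouse build mm9. The genes and lists were chosen with earlier results of these data known. Of the 43 peaks, 30 were in the WT lists and 13 in the mutant lists.

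Melanin is made in melanosomes. Tyr encodes tyrosinase, the enzyme that starts melanin synthesis from tyrosine, and Tyrp1 and Dct encode related enzymes of the same pathway. Pmel encodes the protein that forms the fibrils on which melanin is laid down, and Mlana (MART-1) a melanosomal protein widely used as a marker of melanocytes and melanoma. The genes are known targets of MITF, the lineage transcription factor of melanocytes, which binds variants of the E-box motif in their promoters. Of the marks, H3K4me3 lies at promoters, H3K27ac at active promoters and enhancers, H3K4me1 at enhancers, H3K79me2 over transcribed gene bodies and H3K27me3 over regions held silent by Polycomb.

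The cells came from tumours on the ears of iBIP mice, a model on a mixed FVB and B6 background. Every animal of this cross carried Tyr-CreERT2, a Cre recombinase driven by Tyr regulatory sequence and switched on by tamoxifen, with Rosa26-rtta and a doxycycline-driven TetO-BRAFV600E. Conditional alleles of the tumour suppressors, given as PTENL/L and INK/ARFL/L, were also present in both groups. WT cells were KMT2D+/+ and mutant cells KMT2DL/L. Tumours were started with doxycycline and 4-hydroxytamoxifen at 1 uM, and ages are not given in the labels. Each genotype had 1 library for each of H3K4me1, H3K27ac, H3K4me3, H3K79me2 and H3K27me3, and an input library that was not used here. With 1 library per genotype and mark there was no test, and genotype cannot be told apart from tumour, culture or library. A peak list carries no read counts, so read depth is unknown and a missing peak says only that none was called. In such bulk samples, fewer cells with a mark and less of the mark per cell cannot be told apart.

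Promoter sequences are shown as a description of the start regions, and they do not show which of them carried a mark. The RefSeq promoter table (GRCm38.p6, 250 bases before to 50 after the start) held 3 of the 5 genes. These are Tyr at chr7:87493463-87493762 on the minus strand, Tyrp1 at chr4:80833963-80834262 on the plus strand and Dct at chr14:118052197-118052496 on the minus strand. They are written 5′ to 3′ in the direction of each gene, and capitals mark TCATGTG or its reverse complement CACATGA, the core of the M-box known from pigment gene promoters.
Tyr: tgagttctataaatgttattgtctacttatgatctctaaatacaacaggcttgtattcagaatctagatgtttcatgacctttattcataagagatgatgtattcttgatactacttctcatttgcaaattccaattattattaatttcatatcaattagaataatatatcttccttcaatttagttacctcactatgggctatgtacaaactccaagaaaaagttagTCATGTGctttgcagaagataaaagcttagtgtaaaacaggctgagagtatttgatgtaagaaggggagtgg
Tyrp1: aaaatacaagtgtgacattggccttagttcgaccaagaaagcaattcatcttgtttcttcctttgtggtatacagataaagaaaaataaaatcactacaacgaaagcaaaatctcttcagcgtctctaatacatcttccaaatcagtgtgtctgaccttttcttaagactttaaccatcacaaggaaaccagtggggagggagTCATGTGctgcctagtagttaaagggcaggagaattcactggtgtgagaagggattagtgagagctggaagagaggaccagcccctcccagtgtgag
Dct: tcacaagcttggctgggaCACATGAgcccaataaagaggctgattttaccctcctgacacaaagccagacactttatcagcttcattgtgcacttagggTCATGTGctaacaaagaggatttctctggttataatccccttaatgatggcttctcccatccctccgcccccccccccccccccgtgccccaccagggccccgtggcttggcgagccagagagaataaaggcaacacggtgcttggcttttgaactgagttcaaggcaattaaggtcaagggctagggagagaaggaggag

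The motif begins at base -22 from the start in Tyr and at base -47 in Tyrp1. Dct holds it at base -151, and on the opposite strand at base -232. Of all 32851 promoter windows in the table, 3.77% hold TCATGTG on either strand, and all 3 printed windows do. The motif was picked because it is known from pigment gene promoters, so these matches are no independent evidence of enrichment. A match is a description of the letters and not of binding. These windows are on another build than the peak lists and were not placed on them.

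Over the gene spans themselves, 144 kb in all, the lists of both genotypes were almost empty of active marks. H3K27ac and H3K79me2 covered 0 bp of the 5 spans in WT and in the mutant. H3K4me1 covered 1097 bp in WT, all of it in Pmel, with none in the mutant. Mutant H3K4me3 covered 816 bp and WT H3K4me3 650 bp, all of it at the higher-coordinate end of Mlana. The mark with the most cover was the silencing mark H3K27me3, with 7862 bp (5.46% of the spans) in WT and 2930 bp (2.03%) in the mutant, all of it in Dct. Transcribed genes usually carry H3K4me3 at the start and H3K79me2 beyond it, and no span of the 5 held both in either genotype. These genes are the pigment cell markers for the labelled melanoma cells, and the lists give no H3K27ac inside any of their spans. This 0 depends on spans given to the nearest kb, since WT H3K27ac began 78 bp outside the start of Tyr. For Pmel it also depends on a span of 7 kb, against a RefSeq length of 24351 bp on GRCm38.p6. Cover over all gene spans was not computed, so the values here have no background. RNA was not measured here.

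In the flanks, 200 kb in all, active marks were found and most of them lay beside Pmel. H3K27ac covered 11563 bp in WT, against 6427 bp in the mutant that were all beside Pmel. H3K79me2 covered 10318 bp and 7797 bp. For H3K27ac and H3K79me2, the mutant shortfall as a share of WT cover depended on the flank length. It was smaller with flanks of 50 kb and larger with flanks of 10 kb. H3K4me3 covered 4857 bp in WT against 4171 bp in the mutant, of which 3860 and 4032 bp were beside Pmel. H3K4me1 covered 2190 bp in WT with none in the mutant, and H3K27me3 covered 2158 bp and 1365 bp. Without Pmel, the flanks of the other 4 genes held 3719 bp of H3K27ac, 1628 bp of H3K79me2, 997 bp of H3K4me3 and 627 bp of H3K4me1 in WT. In the mutant the same 4 genes held 139 bp of H3K4me3 and none of the other 3 active marks. Those 139 bp were the overhang of the Mlana span peak, while the WT 997 bp were a separate peak beside Dct. At a score of at least 200 or a −log10 q of at least 5, neither genotype had any active mark in these flanks. With flanks of 50 kb, mutant H3K27ac covered 3337 bp beside Dct (WT 5760 bp) and 2920 bp beside Mlana (WT 3106 bp). Beside Tyr it still covered none (WT 2700 bp). For comparison, the mutant lists as a whole covered 1.02 times the WT length for H3K27ac, 1.05 times for H3K4me3, 0.824 times for H3K79me2, 0.300 times for H3K4me1 and 1.36 times for H3K27me3.

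**Figure D1:**
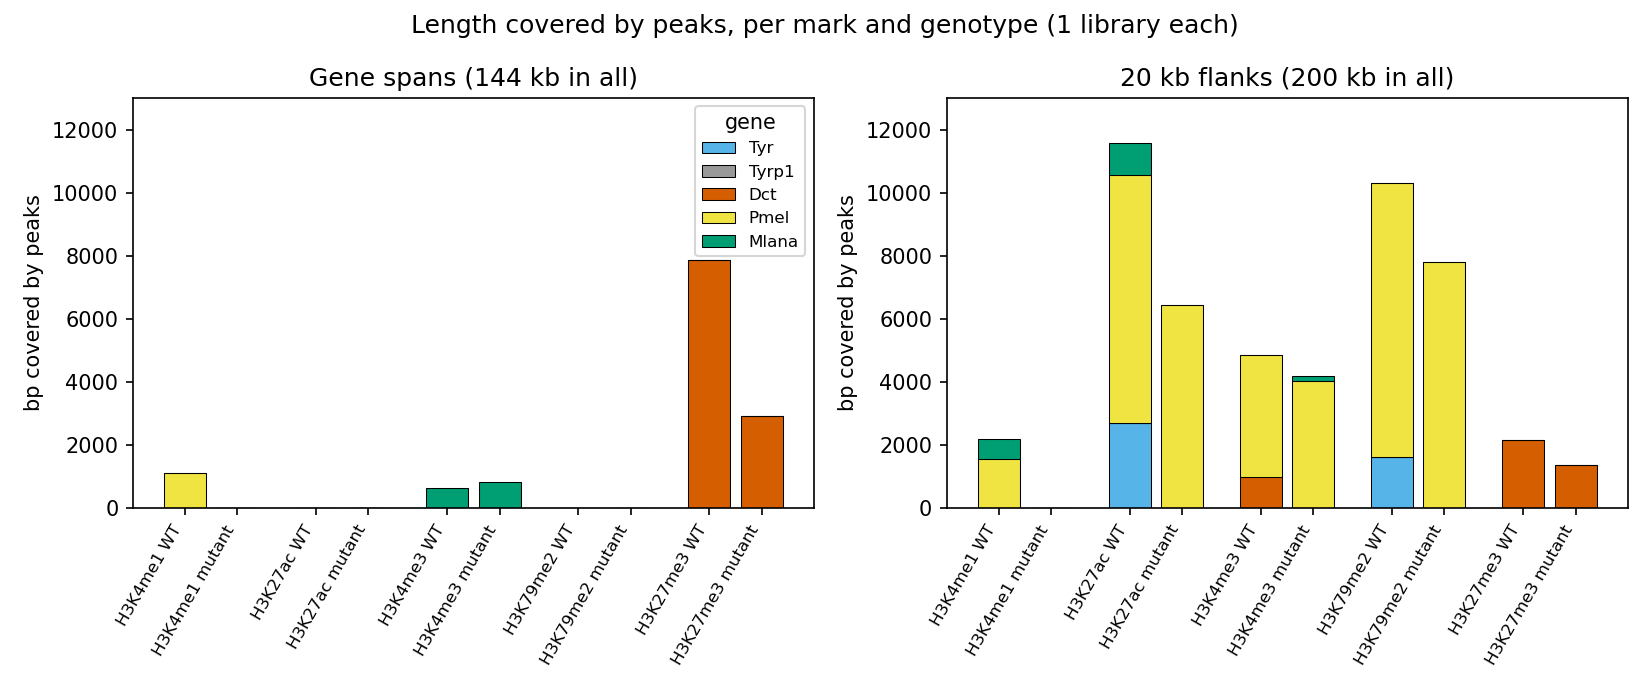
Stacked bars give the bp covered by peaks of each mark and genotype (1 library each), over the 5 gene spans on the left and over the 20 kb flanks on the right, with 1 colour per gene. H3K27me3 over Dct is the tallest pair in the spans (7862 bp in WT, 2930 bp in the mutant), and Pmel makes up most of the flanks for the active marks other than H3K4me1 in the mutant, which has no bar.

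All 13 mutant peaks overlapped a WT peak of the same mark by at least 1 bp, while 17 of the 30 WT peaks overlapped no mutant peak. Over all peaks of the 5 marks together, which mix the marks in other proportions, 21.9% of the mutant and 36.0% of the WT peaks had no peak of the other genotype. The count of WT peaks without a mutant peak was 4 of 4 for H3K4me1, against 77.0% in the whole WT list, so this mark was near its background. It was 4 of 8 for H3K27ac, against 24.1% in the whole list. For H3K79me2 it was 3 of 7, against 36.8%. H3K4me3 had 1 of 4, against 11.3%, and H3K27me3 5 of 7, against 35.0%. In the other direction, 0 of 3 mutant H3K27me3 peaks lacked a WT peak, against 49.9% of that list. The mutant had 0 of 3 such peaks for H3K27ac (18.4% of the list), 0 of 3 for H3K4me3 (6.18%) and 0 of 4 for H3K79me2 (15.3%), and it had no H3K4me1 peak to count (27.9%). These peaks are few and neighbours share a locus, so the counts describe the windows only. With cover of at least 50% of a peak required, 3 of the 13 mutant peaks counted as unshared, 2 of H3K27me3 at Dct and 1 of H3K79me2 at Pmel, against 30.0% of all mutant peaks, and 19 of the 30 WT peaks, against 43.7%. With a score of at least 100 or a −log10 q of at least 3, 12 of 24 WT peaks (35.3% of all) and 1 of 13 mutant peaks (21.8%) were unshared. With both lists of a mark limited to equally many of their strongest peaks, the counts were again 12 of 24 (25.9% of all WT peaks) and 1 of 13 (24.9% of all mutant peaks). With a still stricter threshold (a score of at least 200, or a −log10 q of at least 5), 3 of 10 WT peaks were unshared, near the 31.4% of all WT peaks at that threshold, and 1 of 8 mutant peaks, against 15.8%.

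Tyr spans 94.574 to 94.642 Mb of chromosome 7 and starts at the higher-coordinate end, by its strand in RefSeq. In WT, 2 H3K27ac peaks stood just outside that end, from 94642079 to 94643582 (1504 bp, score 135.67) and from 94643934 to 94645129 (1196 bp, score 131.25). The score is the authors' own value per peak and reads as 10 times the −log10 of the MACS p-value, with a floor of 90. The first peak began 78 bp from the span, which is given to the nearest kb. A WT H3K79me2 peak from 94643568 to 94645195 (1628 bp, fold enrichment 3.61, −log10 q 4.56) overlapped both and covered all of the second. WT had neither H3K4me3 nor H3K4me1 in the window, and the mutant had no peak of any mark. Both H3K27ac peaks were in the weaker part of the WT list, with 18.2% and 16.7% of its peaks below them. They were not in the list at a score of at least 200. The H3K79me2 peak had 30.9% of its list below it and a −log10 q under 5. Tyr-CreERT2 carries Tyr regulatory sequence in both genotypes, so reads from the transgene and from the gene's own upstream region cannot be told apart in these peaks.

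The surroundings of Tyr were bare over a long distance. In WT, the next peak of any mark on the lower side was 178.2 kb from the span, an H3K4me3 peak with a score of 306.09. In the mutant, no list held a peak from 2645.4 kb below to 705.9 kb above the span, a stretch of 3419.3 kb. The nearest H3K4me1 peak was 713.2 kb away in WT and 2485.4 kb in the mutant. H3K27me3 was far in both, at 1908.0 and 1908.3 kb. RefSeq places Nox4 and Grm5 as the nearest protein-coding genes on the lower and higher sides of Tyr.

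Tyrp1, at 80.480 to 80.498 Mb of chromosome 4, had no peak of any mark in its window in either genotype. It starts at the lower-coordinate end, and on that side the nearest peak was 4383.1 kb away in WT and 4382.8 kb in the mutant. On the other side, an H3K4me3 peak stood 58.3 kb from the span in both genotypes, with scores of 777.63 in WT and 433.73 in the mutant. In WT it was joined by H3K27ac at 58.7 kb (score 164.93) and by H3K79me2 at 61.1 kb. In the mutant the nearest H3K27ac was 589.8 kb away and the nearest H3K79me2 1533.3 kb. Lurap1l is the next protein-coding gene on that side in RefSeq. Tyrp1 thus had no mark to compare, and the first place where the genotypes' lists differed lay outside its window.

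Dct, at 118.412 to 118.452 Mb of chromosome 14, was the gene of the 5 with H3K27me3, in both genotypes. It starts at the higher-coordinate end, and the mark lay in the part of the span toward that end. WT had 3 peaks in the span, from 118438907 to 118439793 (887 bp), from 118441232 to 118445168 (3937 bp) and from 118448288 to 118451325 (3038 bp). The mutant had 2, from 118447336 to 118449008 (1673 bp) and from 118450039 to 118451295 (1257 bp). Both mutant peaks overlapped the third WT peak, of which the mutant list covered 1978 bp, and the first and second WT peaks had no mutant counterpart. Within 20 kb beyond the start, WT had peaks of 936 and 618 bp and the mutant a peak of 1365 bp, which met the WT peak of 936 bp over 89 bp.

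The Dct window as a whole held 10020 bp of WT against 4295 bp of mutant H3K27me3. The mutant list as a whole covered more than the WT list, 1.36 times as much. The −log10 q values of the WT peaks in the span were 4.03, 4.58 and 3.47, and those of the mutant peaks 4.10 and 5.57; values of lists of unknown depth are not comparable. Within their own lists, the WT peaks had 55.7%, 71.7% and 29.1% of the peaks below them and the mutant peaks 46.8% and 81.6%, so the ranks overlapped. At a −log10 q of at least 5, the span held none in WT but 1257 bp in the mutant, so the order of the genotypes turned with the threshold.

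The other WT peaks near Dct were on the side of the gene's end. An H3K4me3 peak from 118400401 to 118401397 (score 140.41, 9.15% of the list below it) lay between H3K27me3 peaks of 311 and 293 bp and overlapped the latter by 75 bp. The first of these had the highest −log10 q of the 7 WT H3K27me3 peaks at the gene, 5.47. The mutant had no peak there, and on that side its nearest peak of any mark was 1085.1 kb away. Neither H3K27ac, H3K79me2 nor H3K4me1 had a peak in the Dct window in either genotype. The nearest H3K27ac was 35.8 kb above the span in both. Gpc6 and Tgds are the neighbouring protein-coding genes in RefSeq.

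**Figure D2:**
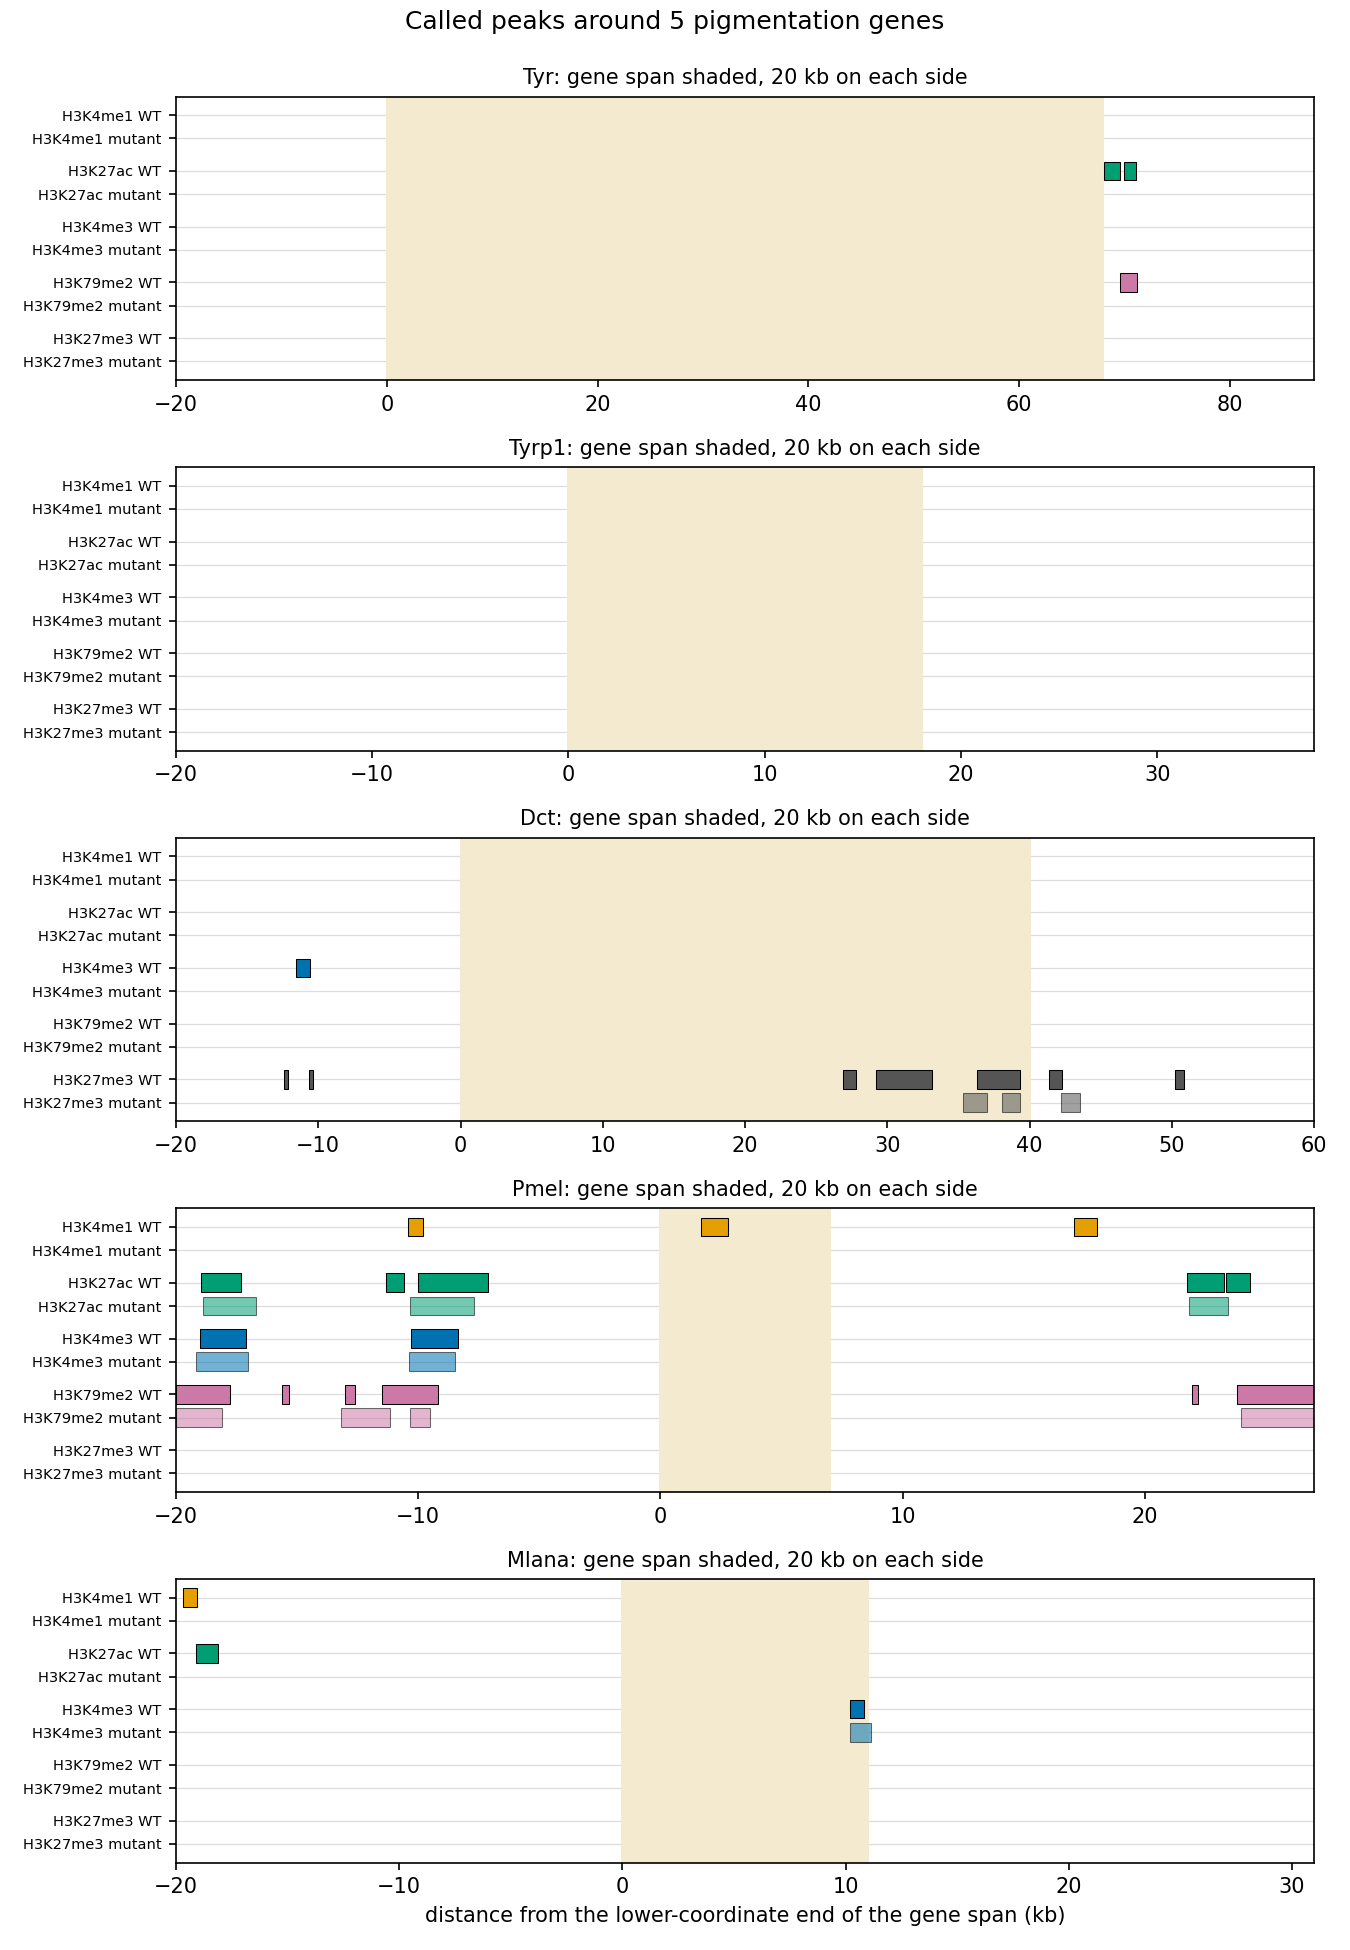
Boxes mark the called peaks of each mark in WT (solid) and mutant (pale) around each gene, with the distance from the lower-coordinate end of the gene span in kb on the x axis, and peaks that cross the 20 kb limit drawn up to it. The shaded spans hold few boxes other than H3K27me3 at Dct, Tyrp1 has none, and the shared groups of active marks stand in the flanks of Pmel.

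Pmel, at 128.151 to 128.158 Mb of chromosome 10, had 16 WT and 9 mutant peaks, the most of the 5 windows. A single one lay in the span, a WT H3K4me1 peak from 128152680 to 128153776 (1097 bp, score 97.48), without H3K27ac, H3K4me3 or H3K79me2 on it. A pair of H3K4me3 peaks in the lower flank was shared. The first, from 128131978 to 128133894 in WT, had a score of 2003.51 there and 1153.43 in the mutant, and the second, from 128140706 to 128142648, had 1431.75 and 1089.18. H3K27ac met both in each genotype, with WT scores of 731.33 and 761.1 and mutant scores of 364.12 and 341.83. Scores depend on depth and are not comparable between lists.

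RefSeq gives Pmel a length of 24351 bp on GRCm38.p6, against the 7 kb span used here, and lists predicted transcripts among its models. Rab5b, Cdk2 and Dgka overlap that longer span on GRCm38.p6, and the flank peaks on mm9 were assigned to no gene. The nearest H3K27ac to the span was 7.1 kb away in WT and 7.7 kb in the mutant, and the nearest H3K4me3 8.4 and 8.5 kb. Flank cover was lower in the mutant for H3K79me2 (8690 bp in WT, 7797 bp in the mutant) and H3K27ac (7844 and 6427 bp). It was slightly higher for H3K4me3 (3860 and 4032 bp). The H3K79me2 gap depended on the setting. At a −log10 q of at least 5 the cover was 8142 and 5767 bp, and with peaks within 1000 bp joined 8690 and 8620 bp. The largest H3K79me2 peaks of the window (WT 7754 bp, mutant 6384 bp) reached across its lower edge. No H3K27me3 peak was in the window, the nearest being 68.1 kb away in WT and 68.2 kb in the mutant.

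The 3 WT H3K4me1 peaks at Pmel and the 1 at Mlana were all weak. Their scores ran from 96.87 to 98.99, and between 7.78% and 9.92% of the WT list lay below them. A score of at least 100 removed all 4, as did limiting the WT list to as many peaks as the mutant list has. The nearest mutant H3K4me1 peak was 59.4 kb from Pmel and 1375.0 kb from Mlana.

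Mlana, at 29.772 to 29.783 Mb of chromosome 19, held an H3K4me3 peak in both genotypes at the higher-coordinate end of its span. It ran from 29782199 to 29782848 in WT (650 bp, score 93.39) and from 29782185 to 29783139 in the mutant (955 bp, score 111.28), and the mutant peak covered the whole WT peak. These were among the weakest H3K4me3 peaks of their lists, with 0.93% of the WT and 4.10% of the mutant list below them. No other mark lay on them. The strand of Mlana is not in the promoter table, so that end was not assigned as start or end of the gene.

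In the lower flank of Mlana, WT had H3K4me1 from 29752310 to 29752936 and H3K27ac from 29752875 to 29753893 (score 150.77), which overlapped by 62 bp. The mutant had no peak of these marks within 20 kb. This pair lay just inside the limit, at 19.1 and 18.1 kb, and H3K27ac peaks of both genotypes lay just outside it, at 21.5 kb in WT (score 119.36) and 21.1 kb in the mutant (score 301.26). Within 50 kb the H3K27ac cover was nearly equal, at 3106 bp for WT and 2920 bp for the mutant, so the difference at Mlana depended on where the window ended. The peak closest outside any of the 5 windows was mutant H3K27ac 20.4 kb above Pmel (score 104.67). Neither H3K27me3 nor H3K79me2 came within 20 kb of the gene.

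**Figure D3:**
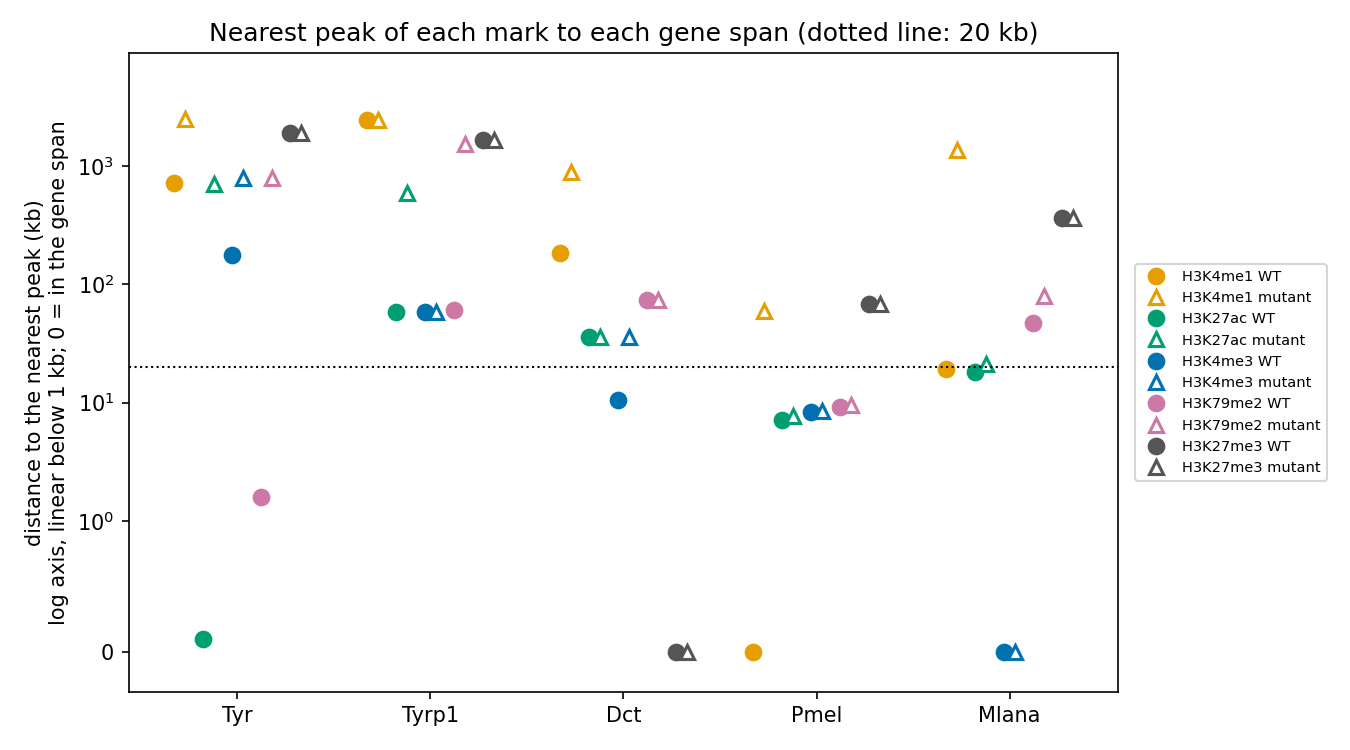
The distance in kb from each gene span to the nearest peak of each mark is shown on a log axis (linear below 1 kb, 0 for a peak in the span), with filled circles for WT and open triangles for the mutant. The mutant H3K4me1 triangles lie from 59.4 to 2485.4 kb, and at Tyr the H3K27ac symbols stand at 0.1 kb for WT and 705.9 kb for the mutant.

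The gene starts were described by a count of gene and mark pairs. Within 2000 bp of the start (of either end for Pmel and Mlana), a peak was called for 5 of the 25 pairs in WT and for 2 in the mutant. The share over all gene starts was not computed, since no mm9 annotation was used, so these counts have no background. The WT pairs were Tyr with H3K27ac and H3K79me2, Dct with H3K27me3, Pmel with H3K4me1 and Mlana with H3K4me3. The mutant pairs were Dct with H3K27me3 and Mlana with H3K4me3. The Mlana peaks lay at the higher-coordinate end, which was not assigned as start or end of the gene. With the lower end alone for Pmel and Mlana, the counts were 4 in WT and 1 in the mutant. No start had H3K4me3 together with H3K27ac. At the still stricter threshold the counts were 0 and 1, the latter being H3K27me3 at Dct.

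Outside Pmel, no peak of the 4 active marks had more than 30.9% of its own list below it, and the highest was the WT H3K79me2 peak at Tyr. The H3K4me3 and H3K27ac peaks in the lower Pmel flank were stronger within the same libraries, apart from a WT H3K27ac peak of 746 bp with 0.19% of the list below it. H3K27me3 at Dct ranged from 29.1% to 85.7% in WT and from 31.5% to 81.6% in the mutant.

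**Figure D4:**
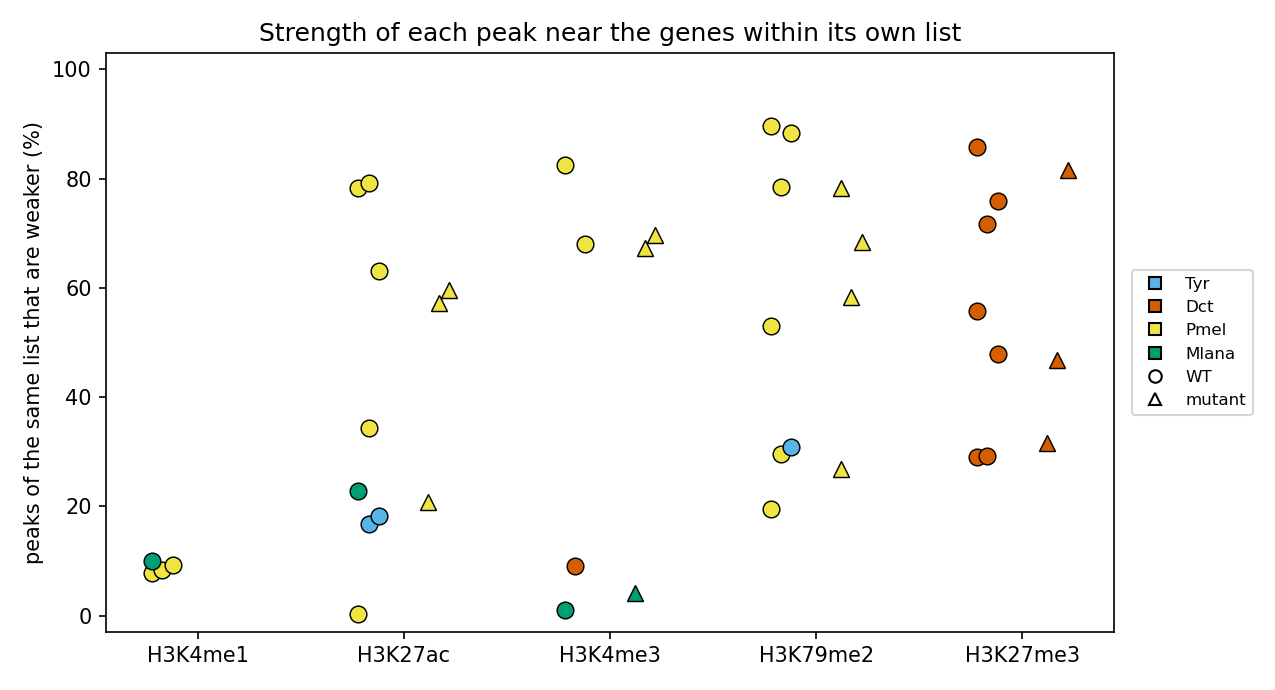
Each point is a peak within 20 kb of a gene span, placed by the percentage of peaks in its own list that are weaker (by score for H3K4me1, H3K27ac and H3K4me3, by −log10 q for H3K79me2 and H3K27me3), with circles for WT, triangles for the mutant and colours for genes. The active marks at Tyr, Dct and Mlana lie at or below 30.9%, while Pmel peaks reach 89.6% and Dct H3K27me3 peaks 85.7%.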

How the data were processed

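The 10 deposited peak lists were used unchanged, 1 per library. Per the submitters' processing notes, the tools were Bowtie, MACS, MACS2 and deepTools and the build mm9; versions and roles are not given in the sources used here. For H3K4me1, H3K27ac and H3K4me3 the deposited value is a score per peak. For H3K79me2 and H3K27me3 the authors deposited a fold enrichment (ratio), a −log10 p, a −log10 q and a score.

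Peaks that overlapped a gene span or the 20 kb on either side were taken. Overlapping peaks were merged and clipped to count bp. Peaks with at least 1 bp in common were shared. Coordinates count from 1 on mm9. No mm9 annotation was used, so RefSeq (GRCm38.p6) gave strands, neighbours and promoters only, and other pigment genes were not placed. All 5 genes were described (the naming rule). Members and lists were chosen with earlier results of these data known. Alternatives changed the threshold, list length, flank, joining, clipping, overlap and start distance. Python 3.11.15, numpy 2.4.6, pandas 2.3.3 and matplotlib 3.10.9 were used, and counting of overlaps and bp was tested on simulated data.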

Additional observations from a re-analysis of the deposited data

How the results depend on the processing

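Differences below are mutant minus WT in bp. Over the spans they were -1097 for H3K4me1, 166 for H3K4me3 and -4932 for H3K27me3. With a score of at least 100 or a −log10 q of at least 3, and also with both lists limited to equally many of their strongest peaks, H3K4me1 gave 0 and H3K4me3 816. At the still stricter threshold (200 and 5), H3K4me1 and H3K4me3 gave 0, and H3K27me3 reversed to 1257, at Dct. Whole peaks gave 305 for H3K4me3. In the flanks, H3K4me1 (-2190) gave 0 under each stricter threshold and with equal lists, -208 with flanks of 10 kb and -4373 with 50 kb. H3K27ac (-5136) gave -1262 at the still stricter threshold and -3250 at 10 kb. Its difference at 50 kb was -5371, close to the 20 kb value, but the cover was larger (WT 26826 bp, mutant 21455 bp). As a share of WT cover, the H3K27ac shortfall was thus smaller at 50 kb than at 20 kb (WT 11563 bp, mutant 6427 bp). At 10 kb that share was larger (WT 5573 bp, mutant 2323 bp). H3K4me3 (-686) gave 172 at the still stricter threshold, -2 at 10 kb and 643 at 50 kb. H3K79me2 (-2521) gave -4188 with whole peaks. Its shortfall as a share of WT cover was also smaller at 50 kb (WT 35082 bp, mutant 31918 bp) and larger at 10 kb (WT 2433 bp, mutant 483 bp). H3K27me3 (-793) gave -311 at the still stricter threshold and 429 at 10 kb. Among single genes, reversals were H3K27me3 over the Dct span (1257, as above) and in its 10 kb flanks (429), H3K4me3 in the 50 kb flanks of Dct (321) and H3K4me3 in the 10 kb flanks of Pmel (-141). The causes were not tested beyond the fewer peaks or other lengths that each setting uses.

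WT peaks without a mutant peak numbered 17 of 30, and 3 of 10 at the still stricter threshold. Mutant peaks without a WT peak numbered 0, then 3 when 50% cover was required (30.0% of all mutant peaks), and 1 with either stricter threshold (21.8% and 15.8%) and with equal lists (24.9%). Pairs with a peak at the gene start numbered 5 in WT, then 3 within 1000 bp, 3 at the stricter and 0 at the still stricter threshold. In the mutant they numbered 2, then 1 at the still stricter threshold. With the lower end alone for Pmel and Mlana, a setting chosen after seeing the data, they numbered 1 in the mutant and 4 in WT. That WT value is counted among the 49 below, as are the differences of H3K27ac at 50 kb and of H3K79me2 at 10 and 50 kb. Of the other 49 recomputed values, 10 are H3K27ac and H3K79me2 over the spans, which are 0 in both genotypes and have no direction, 25 equal the value reported, some because the setting removes nothing there, and 14 differ by less than 1.5 times in the same direction. No paired analysis was possible because each genotype had 1 library per mark. Depth is unknown, so how far it limits these counts cannot be read from the lists.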

Other observations

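Beyond the 20 kb windows, active marks common to both genotypes stood near Dct, Pmel and Mlana. Above Pmel, H3K27ac peaks lay 21.3 and 26.2 kb from the span in WT, with scores of 1820.72 and 1210.13. The mutant peaks that met them had scores of 1085.9 and 1168.05. H3K4me3 peaks were there in both genotypes, with scores of 1961.34 and 1886.03 in WT and 1417.18 and 1702.22 in the mutant. H3K4me1 peaks overlapped these H3K27ac and H3K4me3 peaks in WT alone, at 23.2 and 27.7 kb (scores 150.51 and 182.68). In the whole WT H3K4me1 list, 77.0% of the peaks had no mutant peak. An H3K79me2 peak of 14436 bp in WT and of 16684 bp in the mutant began 27.1 and 27.5 kb from the span.

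Above Dct, an H3K4me3 peak 35.7 kb from the span in WT (score 941.44) and 35.6 kb in the mutant (score 670.61) lay with H3K27ac at 35.8 kb in each. Another H3K27ac peak, at 45.6 kb in WT and 45.7 kb in the mutant, had H3K4me3 in the mutant alone (score 161.33), and the WT H3K27ac peaks beyond it, at 47.1 kb (score 97.03) and 47.9 kb (score 363.23), had no mutant peak. Below Mlana, H3K4me3 stood 48.8 kb away in WT and 48.7 kb in the mutant, with scores of 1401.57 and 711.42. The windows of Tyr and Tyrp1 gained no peak between 20 and 50 kb in either genotype.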
